A study of Mus musculus with 27 samples.

Results

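The TGF-beta and BMP pathway genes described here are 56 genes of the 8251 that a probe set of the array names alone. They were chosen by symbol: TGF-beta, activin, inhibin, Nodal, Lefty, BMP and GDF ligands, latent TGF-beta binding proteins, type I, II and III receptors, Smads, the antagonists noggin, chordin and follistatin, and the Id genes. Their 68 probe sets were reduced to 1 per gene, the brightest by its mean of 27 arrays, and 10 genes had several. The array was the Affymetrix MG_U74Av2, and every level below is a log2 RMA intensity, a scale on which 1 unit is a doubling. The RNA came from murine neural crest explants, dorsal neural tubes cut along the midline so that one side was the control and the other received the vitamin A derivative retinoic acid (RA), dissolved in ethanol and used at 1e-06 M. The 6 h and 12 h groups held 3 arrays of each treatment, the 24 h groups 4 of each, and the 48 h groups 4 of control and 3 of RA. For the 6 h exposures the labels describe a night of culture on dishes coated with fibronectin, in DMEM supplemented with 10% horse serum, before RA was added, and they do not say this for the later times. The hours are therefore times of the experiment and not strictly ages of the culture.

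Ligands of this family bind pairs of type I and type II serine/threonine kinase receptors, which phosphorylate receptor Smads that enter the nucleus with Smad4. TGF-beta and activin act mainly through Smad2 and Smad3, and BMPs through Smad1 and Smad5. Smad6 and Smad7 inhibit the pathway and are themselves induced by it, and the Id genes are classical BMP targets. In the dorsal neural tube, BMPs help to specify and release the neural crest, and TGF-beta steers crest cells towards smooth muscle.

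The explants were not pure crest. The marker lists used here and below were chosen with earlier results of these data known, so their counts are descriptions. The crest markers Snai2, Ets1, Erbb3 and Twist1 lay above the array median on all 27 arrays, while Ednrb lay below the 25th percentile on all 27 and Foxd3 on 23. Markers of neural tube (4 of 6) and of surface ectoderm (4 of 6) also lay above the median on every array. So did 2 of 8 mesoderm and muscle, 2 of 7 endothelium and 2 of 6 blood markers. Of 6 macrophage markers and 2 of notochord and floor plate, 0 did. In such bulk RNA, fewer cells of a type and less RNA per cell cannot be told apart. The description of the third 48 h control names RA while its title names control. It was kept as a control. Scanner records gave 9 scan days, and the 6 h and 48 h arrays had days of their own, so culture time and scan day cannot be told apart in full. The same records gave 13 pairs of a control and an RA array scanned one after the other, here called record pairs. Nothing in the labels says that replicates came from separate litters, so a p-value here reflects only how these arrays spread, which may be technical. Precision is limited by the small number of arrays per group.

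Of the 56 genes, 39 lay above the array's 25th percentile on every array (a percentile of 4.92 to 5.18) and 8 lay below it on all 27. Those 8 were Acvr1, Bmp2, Bmp10, Bmp15, Bmpr1b, Inhbb, Smad3 and Tgfbr2, for which RMA compresses differences. Of the 14 BMP and GDF ligands, 6 lay below the percentile on more than 13 arrays, as did 3 of 6 type I receptors, 2 of 7 Smads and 0 of 4 Id genes. No gene was dropped for its level.

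Over culture time the control explants changed in 8 of the 56 genes by limma's moderated F-test over the 4 times, against 12.9% of all 12422 probe sets tested (Benjamini-Hochberg adjusted p below 0.05). The 8 were Tgfb3, Inhba, Bmp4, Acvr1, Eng, Smad7, Id2 and Id4. The members' share is close to that of the array, so the pathway as a whole did not stand out in number. Between 6 and 12 h 3 members passed (5.43% of all probe sets), between 12 and 24 h 0 (0.0564%, with 6 members at an unadjusted p below 0.05), between 24 and 48 h 1 (1.08%), and between 6 and 48 h 5 (9.52%). The median difference of the 56 genes from 6 to 48 h was 0.11, with 0.07 over all probe sets.

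**Figure D1:**
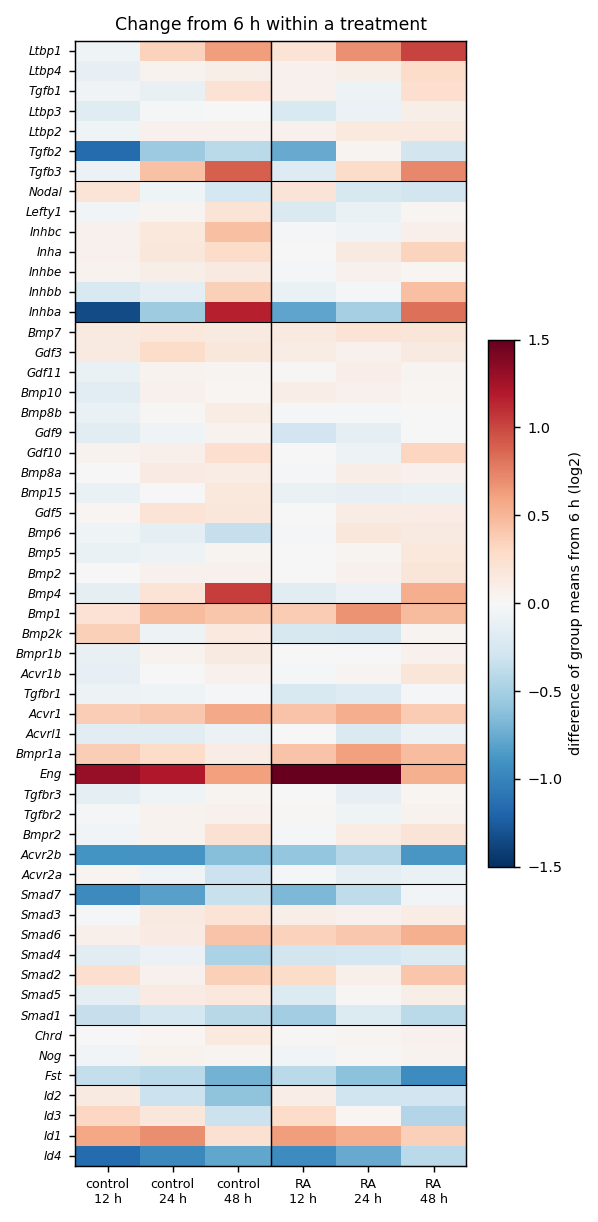
Difference of group means from the 6 h group of the same treatment (log2, colour) for the 56 genes in rows, grouped by role with horizontal lines, at 12, 24 and 48 h in control (left) and RA explants (right). Colours end at 1.5 in either direction. Eng is red and Id4, Smad7 and Inhba are blue at 12 h in both treatments.

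Among the TGF-beta ligands, Tgfb3 rose late. Control arrays read 7.67, 7.70 and 7.54 at 6 h, then 7.54, 7.44 and 7.64 at 12 h, then 7.91, 7.88, 8.20 and 8.30 at 24 h, and 8.49, 9.07, 8.35 and 8.21 at 48 h. The 48 h controls all lay above the 6 h controls, and the 24 h controls above the 12 h controls. From 6 to 48 h Tgfb3 rose by 0.90 (SE 0.19; limma adjusted p = 0.0029), and its second probe set rose by 0.70 (adjusted p = 0.0049). With scan day as a fixed block the step from 12 to 24 h alone passed for Tgfb3 (0.62, adjusted p = 0.023 by limma; 1.57% of all probe sets passed in that fit). The RA explants read 7.53, 7.44 and 7.31 at 6 h and 8.53, 7.62 and 8.31 at 48 h, which do not overlap, and Tgfb3 rose there by 0.73 (SE 0.20; limma adjusted p = 0.0173). That call was lost without the third RA array of 6 h (0.67, adjusted p = 0.0752) and without the first (0.54, 0.108) or the third (0.65, 0.0736) of 48 h. Its second probe set gave 0.30 in RA explants (adjusted p = 0.298).

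Tgfb2, another TGF-beta isoform, read 7.59, 7.82 and 7.22 in 6 h controls and 6.08, 6.77 and 6.33 at 12 h. These groups did not overlap, and the difference of -1.15 (SE 0.46) missed the threshold (limma adjusted p = 0.17). Ltbp1, which binds latent TGF-beta to the matrix, passed in RA explants alone among the comparisons of 48 with 6 h. Its RA arrays read 6.5, 6.48 and 6.27 at 6 h and 7.67, 7.27 and 7.35 at 48 h, a rise of 1.01 (SE 0.25; limma adjusted p = 0.00884). The controls of Ltbp1 read 6.76, 6.58 and 6.27 at 6 h and 7.71, 7.38, 6.94 and 6.63 at 48 h, which overlap, with a difference of 0.63 (SE 0.23; adjusted p = 0.0971). No interaction of RA with time passed for any member, so Ltbp1 is not shown to differ between treatments. Tgfb1, Ltbp2, Ltbp3 and Ltbp4 did not pass in any comparison.

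Of the activins, inhibins, Nodal and Lefty, Inhba, the subunit of activin A, had the largest swing. Control arrays read 7.50, 7.47 and 7.53 at 6 h, then 5.90, 6.20 and 6.39 at 12 h, then 6.58, 8.43, 6.68 and 6.20 at 24 h, and 7.57, 9.04, 9.05 and 9.02 at 48 h. The level was low at 12 h and high at 48 h, with the second array of 24 h and the first of 48 h apart from their groups, so that 24 and 48 h overlapped. Both arrays of the second 24 h record pair shared that height, at 8.43 and 7.70, and had a scan day to themselves. The rise from 24 to 48 h was 1.70 (SE 0.42; limma adjusted p = 0.0479). This call was close to the threshold and was lost when any of 22 of the 27 arrays was left out, with differences from 1.44 to 1.70 among those fits, and with scan day as a random block (1.60, adjusted p = 0.0883). The fall from 6 to 12 h measured -1.34 (adjusted p = 0.122) and the net difference from 6 to 48 h 1.17 (adjusted p = 0.111; 0.0269 without the 2 arrays of that scan day, an alternative chosen after seeing the data). Inha, the inhibin alpha subunit, rose by 0.33 in RA explants from 6 to 48 h (SE 0.10; limma adjusted p = 0.0351), and the call was lost without 5 of the 6 arrays in turn (adjusted p up to 0.176). Nodal, Lefty1, Inhbb, Inhbc and Inhbe did not pass.

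Among 14 BMP and GDF ligands only Bmp4, a dorsal BMP ligand, passed in any comparison listed above. Control arrays read 8.09, 7.71 and 7.95 at 6 h, then 7.70, 7.84 and 7.82 at 12 h, then 7.80, 8.09, 8.25 and 8.37 at 24 h, and 9.19, 9.50, 9.24 and 7.90 at 48 h. The fourth 48 h control lay inside the 6 h range and the other 48 h controls above it. Its record partner, the third RA array of 48 h, read 7.82 where the other RA arrays read 8.71 and 8.81. From 6 to 48 h Bmp4 rose by 1.04 (SE 0.26; limma adjusted p = 0.0126), by 1.39 without the fourth 48 h control, and by 0.93 without the second 6 h control (adjusted p = 0.0703). The second Bmp4 probe set gave 0.74 (adjusted p = 0.308). The RA explants gave 0.54 over the same interval (adjusted p = 0.265). Across the other 13 ligands the control difference from 6 to 48 h had its lowest value at Bmp6 (-0.34).

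**Figure D2:**
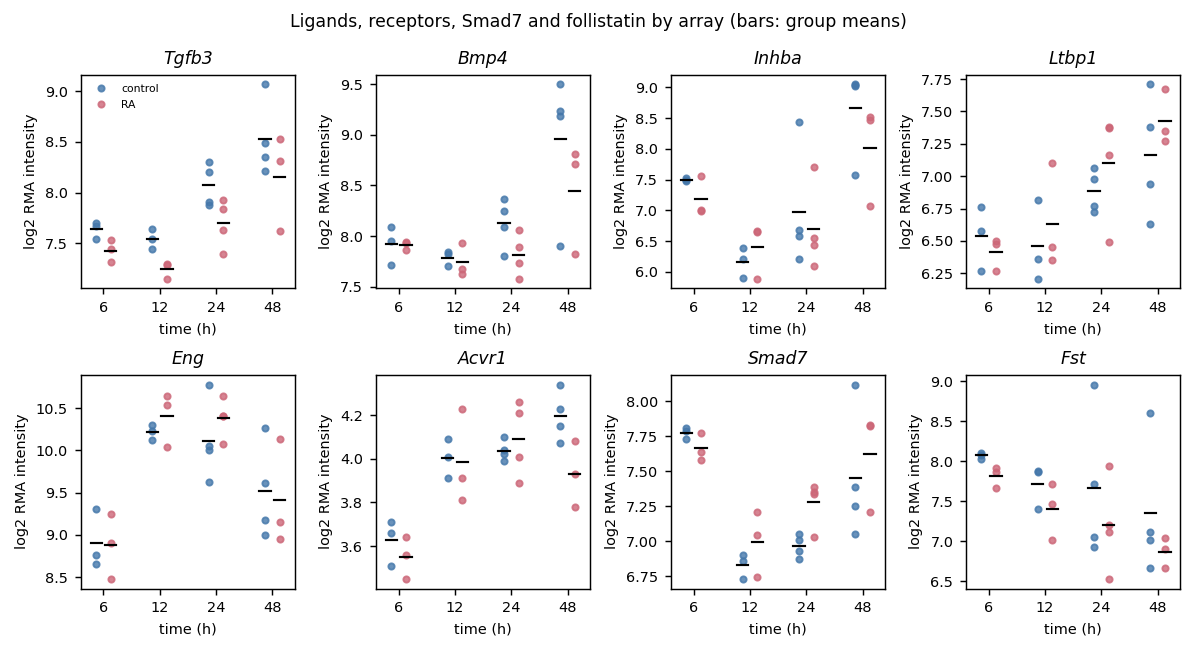
Log2 RMA intensity (y axis) against time in h (x axis) for Tgfb3, Bmp4, Inhba, Ltbp1, Eng, Acvr1, Smad7 and Fst, 1 point per array, control in blue and RA in red, with a black bar at each group mean. Eng is higher at 12 and 24 h than at 6 h, Smad7 lower, and Tgfb3 highest at 48 h.

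The 250 bases before the RefSeq start of Bmp4 are shown because it was the BMP ligand that rose. The sequence is from RefSeq (GRCm38.p6, chr14:46390670-46390919, minus strand), 5′ to 3′, with capitals at matches to GTCT or its complement AGAC (the core of the Smad binding element), GGCGCC (a GC-rich Smad motif) or AGGTCA and TGACCT (the repeat unit of retinoid receptor sites).
Bmp4: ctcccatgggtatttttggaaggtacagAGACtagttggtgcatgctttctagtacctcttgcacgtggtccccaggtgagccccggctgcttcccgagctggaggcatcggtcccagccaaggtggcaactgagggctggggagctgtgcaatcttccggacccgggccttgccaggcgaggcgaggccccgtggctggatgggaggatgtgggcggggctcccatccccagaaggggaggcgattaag
It held 1 GTCT match, written AGAC, with its first base at -222 from the start. GTCT or AGAC occurred in 82.9% of 32851 mouse promoters of this length, GGCGCC in 9.59% and AGGTCA or TGACCT in 14%. The matches are descriptions of letters and not of bound sites.

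Among the 6 type I receptors, Acvr1, a BMP type I receptor also called ALK2, rose from a dim level. The controls read 3.51, 3.71 and 3.66 at 6 h and 4.15, 4.34, 4.23 and 4.07 at 48 h, which do not overlap. The rise was 0.57 (SE 0.11; limma adjusted p = 0.00134), and in RA explants 0.38 (SE 0.12; adjusted p = 0.0319), a call lost without 4 of the 6 arrays in turn. All 27 arrays had Acvr1 below their 25th percentile. Bmpr1a, the BMP receptor ALK3, read 6.62, 7.06 and 6.83 in 6 h controls and 6.78, 6.94, 6.77 and 7.29 at 48 h, and did not pass over time. Tgfbr1, Acvr1b, Acvrl1 and Bmpr1b did not pass.

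Of the type II and III receptors, Eng rose early. Endoglin is a TGF-beta and BMP co-receptor best known on endothelium. Control arrays read 9.31, 8.76 and 8.66 at 6 h, then 10.12, 10.23 and 10.30 at 12 h, then 10.00, 9.63, 10.05 and 10.78 at 24 h, and 10.26, 9.62, 9.18 and 9.0 at 48 h. The 12 h and 6 h controls did not overlap. From 6 to 12 h Eng rose by 1.31 (SE 0.32; limma adjusted p = 0.0155), and the call was lost without the second or the third 6 h control (1.23 and 1.18; adjusted p = 0.0723 and 0.0782), without the first or the third 12 h control (1.36 and 1.26; 0.0514 and 0.0629), and with scan day as a random block (1.28, adjusted p = 0.0746). RA arrays of Eng read 9.25, 8.90 and 8.48 at 6 h and 10.04, 10.64 and 10.54 at 12 h, also without overlap. Beside it, 2 of 7 endothelial markers on the array rose between 6 and 12 h in controls, Tek (1.05, limma adjusted p = 0.0239) and Emcn (1.37, adjusted p = 0.0183), while the median of the 7 differed by 0.07, against -0.01 over all probe sets. Their mean level ran from 5.98 to 6.16 at 6 h and from 6.13 to 6.59 at 12 h. Of the 7, Tie1 lay below the array's 25th percentile on 23 arrays, Tek on 17 and Cdh5 on 7. Of 8 mesoderm and muscle markers Myog rose (0.30, adjusted p = 0.0475), with a list median of 0.30 in the same step. Of 6 surface ectoderm markers 1 was lower, with a list median of 0.08. In that step 5.43% of all probe sets passed. The part of any of these lists in the rise of Eng was not tested. Acvr2b, an activin receptor, read 9.26, 9.03 and 8.93 in 6 h controls and 8.31, 8.18 and 8.05 at 12 h, a difference of -0.89 that missed the threshold (adjusted p = 0.263), and from 6 to 48 h it differed by -0.63 (adjusted p = 0.33). Tgfbr2, Tgfbr3, Bmpr2 and Acvr2a did not pass.

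Of 7 Smads, only the inhibitor Smad7 passed on its representative probe set. Control arrays read 7.73, 7.81 and 7.79 at 6 h, then 6.73, 6.90 and 6.86 at 12 h, then 7.01, 6.93, 7.05 and 6.87 at 24 h, and 7.25, 7.39, 7.05 and 8.12 at 48 h. The 12 h and 24 h controls lay below every 6 h control, and the fourth 48 h control lay above them all. Smad7 fell by 0.95 from 6 to 12 h (SE 0.19; limma adjusted p = 0.00416). The common Smad, Smad4, differed by -0.48 from 6 to 48 h (adjusted p = 0.158). Smad1, a BMP Smad, differed by -0.42 (adjusted p = 0.149), while its second probe set fell by 0.53 (adjusted p = 0.0484). Smad2, Smad3, Smad5 and Smad6 did not pass.

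The antagonists noggin and chordin, which bind BMPs, did not pass. Nog read 6.43, 6.25 and 6.37 in 6 h controls and from 6.26 to 6.49 at 48 h. Chrd ran from 6.4 to 6.66 and from 6.38 to 6.88 in the same groups. Follistatin (Fst), which binds activin, read 8.11, 8.03 and 8.08 in 6 h controls and 6.67, 8.61, 7.12 and 7.02 at 48 h, with the second 48 h control above the whole 6 h group. The difference was -0.72 (SE 0.40; limma adjusted p = 0.282) and -1.14 without that array (adjusted p = 0.042). The second arrays of 24 h were high here too, at 8.96 in control and 7.94 in RA explants. Bmp1, a protease that cleaves chordin and procollagen, differed by 0.42 over the same interval (adjusted p = 0.202).

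The Id proteins bind and disable helix-loop-helix transcription factors. Id4 read 7.13, 7.37 and 7.36 in controls at 6 h, then 6.10, 6.13 and 6.17 at 12 h, then 6.47, 6.45, 6.12 and 6.25 at 24 h, and 6.08, 6.25, 7.04 and 6.66 at 48 h. Every later control lay below every 6 h control. Id4 fell by 1.15 from 6 to 12 h (SE 0.23; limma adjusted p = 0.00328) and by 0.78 from 6 to 48 h (SE 0.21; adjusted p = 0.0202). The second call was lost without the second (adjusted p = 0.08) or the third 6 h control (0.0775) or the first 48 h control (0.0709). In RA explants Id4 differed by -0.41 from 6 to 48 h and did not pass.

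Id2 moved later. Its controls read 10.94, 10.88 and 11.34 at 6 h, then 11.13, 11.23 and 11.22 at 12 h, then 10.74, 10.47, 10.78 and 10.94 at 24 h, and 10.45, 10.01, 10.61 and 10.74 at 48 h. The 24 h controls lay below the 12 h controls, and the 48 h below the 6 h controls. Id2 fell by 0.60 from 6 to 48 h (SE 0.14; limma adjusted p = 0.00735), by 0.46 without the third 6 h control (adjusted p = 0.0729), and from 12 to 24 h by 0.41 with scan day as a fixed block (adjusted p = 0.0254). Id1 and Id3 differed by 0.23 and -0.32 from 6 to 48 h and did not pass. Beside the falls of Id2 and Id4, 2 of 6 neural tube markers fell from 6 to 48 h in controls, Sox2 (-1.98) and Pax6 (-1.11), and 3 of 10 crest markers, Pax3 (-0.86), Tfap2a (-0.65) and Msx1 (-1.29), while 9.52% of all probe sets passed. Of 6 surface ectoderm markers Epcam fell (-1.11), with a list median of -0.37. The mean of the neural tube markers ran from 8.55 to 8.67 at 6 h and from 7.72 to 8.36 at 48 h, and that of the crest markers from 7.31 to 7.43 and from 6.84 to 7.04. The mean of the surface ectoderm markers ran from 8.25 to 8.32 and from 7.46 to 8.36. Their part in the falls was not tested.

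**Figure D3:**
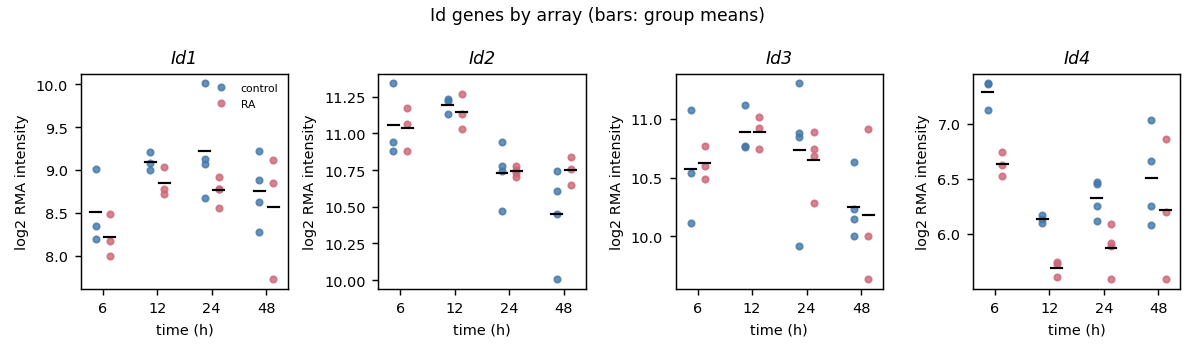
Log2 RMA intensity (y axis) against time in h (x axis) for Id1, Id2, Id3 and Id4, 1 point per array, control in blue and RA in red, with a black bar at each group mean. In the Id4 panel the RA arrays lie below the control arrays at 6, 12 and 24 h without overlap, and the groups overlap at 48 h.

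With scan day as a random block, all 5 members that passed from 6 to 48 h in controls passed again. Their limma adjusted p ran from 0.0144 for Tgfb3 to 0.0392 for Id4, while 4.59% of all probe sets passed. No scan day held 6 h or 48 h arrays together with arrays of another time. This block therefore cannot separate scan day from a difference against 6 h, and passing does not show the difference to be free of it. From 6 to 12 h Smad7 (0.0334) and Id4 (0.0159) passed with that block (1.44%), under the same limit. The RA explants had 4 members higher at 48 than at 6 h and 0 lower, while 5.51% of all probe sets were higher and 6.23% lower (11.7% in all), and with that block Tgfb3 and Ltbp1 remained (7.69%).

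The 250 bases before the starts of Id2 and Id4 are shown because both genes fell over culture. They are RefSeq sequences of GRCm38.p6, Id2 at chr12:25096093-25096342 on the minus strand and Id4 at chr13:48260866-48261115 on the plus strand, with capitals at the same motifs.
Id2: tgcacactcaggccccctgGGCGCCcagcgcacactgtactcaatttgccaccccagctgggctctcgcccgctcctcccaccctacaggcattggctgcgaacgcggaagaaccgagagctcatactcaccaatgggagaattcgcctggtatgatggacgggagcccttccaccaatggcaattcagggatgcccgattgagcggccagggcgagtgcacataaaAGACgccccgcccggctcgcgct
Id4: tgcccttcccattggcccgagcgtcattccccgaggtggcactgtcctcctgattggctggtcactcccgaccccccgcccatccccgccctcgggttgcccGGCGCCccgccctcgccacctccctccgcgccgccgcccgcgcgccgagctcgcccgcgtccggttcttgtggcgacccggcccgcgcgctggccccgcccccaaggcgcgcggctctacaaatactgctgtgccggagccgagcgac
Id2 held 1 GGCGCC match at -231 from the start and 1 GTCT match, written AGAC, at -23. Id4 held 1 GGCGCC match, at -148, and 0 GTCT matches. AGGTCA and TGACCT were in neither window.

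RA was compared with control at each time and as the mean of the 4 differences. The counts in this paragraph are from the main fit without a block, which ignored any pairing of arrays. At 6 and 12 h 0 of the 56 genes passed (0.0242% of all probe sets each), at 24 h 0 (0.153%), at 48 h 0 (0.274%), and for the mean of 4 times 0 (0.564%). At an unadjusted p below 0.05 there were 2, 3, 2 and 2 members at the 4 times and 5 for the mean. The RA effect of 0 members differed between times (0.0161% of all probe sets), with 0 members at an unadjusted p below 0.05 as well. The median mean RA difference of the 56 genes was -0.01, and that of all probe sets 0.01. These comparisons share their control arrays with the time comparisons above. With the record pair as a block, Id4 passed at 6 and 24 h, and Id4, Tgfb3 and Bmpr1a in the mean (below). Record pairs rest on scan order and were not tied to the 2 sides of one neural tube.

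**Figure D4:**
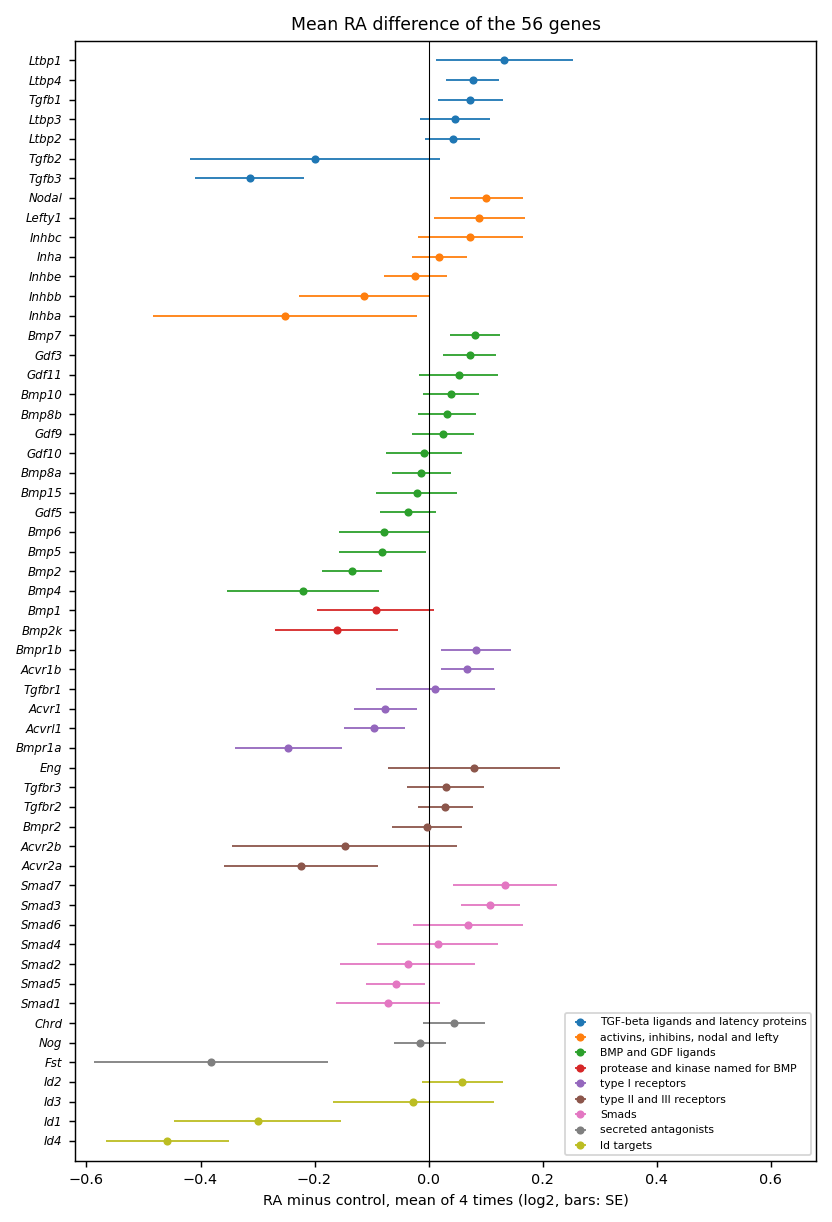
Mean over 4 times of the RA minus control difference (x axis, log2, bars are SE) for the 56 genes, coloured by role. Id4, Fst, Tgfb3 and Id1 lie furthest to the left, at -0.46, -0.38, -0.31 and -0.30, and no gene lies above 0.13 to the right.

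Id4 came nearest to the threshold, with a lower group mean in RA explants at each time. RA arrays read 6.74, 6.63 and 6.53 at 6 h against 7.13, 7.37 and 7.36 in controls, and 5.61, 5.72 and 5.74 at 12 h against 6.10, 6.13 and 6.17. They read 5.89, 5.92, 5.59 and 6.09 at 24 h against 6.47, 6.45, 6.12 and 6.25, and 5.59, 6.86 and 6.20 at 48 h against 6.08, 6.25, 7.04 and 6.66. The groups did not overlap at 6, 12 and 24 h, and overlapped at 48 h. The mean difference of Id4 was -0.46 (SE 0.11), with a limma adjusted p of 0.0506 and an unadjusted p of 0.000289. Within record pairs Id4 was lower with RA in 13 of 13, by -0.83 to -0.16 with a median of -0.49.

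A fit with the record pair as a block, which removes the difference between pairs, gave Id4 a mean difference of -0.48 (SE 0.05; limma adjusted p = 2.23e-05), while 2.94% of all probe sets passed. In that fit Id4 also passed at 6 h (-0.66, adjusted p = 0.00985; 0.95% of probe sets) and at 24 h (-0.45, 0.0281; 0.652%), and missed at 12 h (-0.44, 0.174) and 48 h (-0.37, 0.14). With scan day as a block the mean again passed (adjusted p = 2.3e-05; 2.3%), as did 6 h (0.0118; 0.443%). Within single scan days the Id4 difference was -0.57 at 6 h, -0.45 at 12 h and -0.35 at 24 h, in alternatives chosen after seeing the data. None of these passed (limma adjusted p = 0.731, 0.723 and 0.9998). In the fit without a block, 0.564% of all probe sets passed in the mean of 4 times. Beside the Id4 difference, 1 of 6 neural tube markers, Fabp7, was lower with RA there (-0.76, limma adjusted p = 0.00154). Of 8 mesoderm markers Meox1 was higher (0.82, adjusted p = 5.3e-06) and Meox2 lower (-1.03, adjusted p = 0.0205). The neural tube mean ran from 8.10 to 8.34 in RA and from 8.52 to 8.74 in control arrays at 12 h, and from 8.60 to 8.76 and 8.55 to 8.67 at 6 h. At 24 h it ran from 8.06 to 8.27 in RA and from 8.33 to 8.60 in control arrays, without overlap as at 12 h. At 48 h it ran from 7.56 to 7.82 and from 7.72 to 8.36, which overlapped. The median difference of the 6 markers was -0.48 at 12 h and 0.01 at 24 h (-0.001 and -0.004 over all probe sets). Within record pairs the median was -0.976 for Fabp7 and -0.785 for Sox2, and from -0.097 to 0.005 for the others. The neural tube list as a whole was thus not lower at 24 h. The part of these markers in the Id4 difference was not tested.

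Tgfb3 also had lower group means with RA. The RA arrays read 7.15, 7.28 and 7.29 at 12 h against 7.54, 7.44 and 7.64, and 7.84, 7.39, 7.63 and 7.93 at 24 h against 7.91, 7.88, 8.20 and 8.30. The groups did not overlap at 12 h and overlapped at 24 h. The mean difference was -0.31 (SE 0.09; limma adjusted p = 0.223), lower in 11 of 13 record pairs, and with the record pair block it passed (-0.27, adjusted p = 0.0289). Both exceptions were at 48 h. The second Tgfb3 probe set had a mean difference of -0.11 (adjusted p = 0.999).

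Bmpr1a read 6.04, 6.48 and 6.67 with RA at 6 h against 6.62, 7.06 and 6.83, and 6.70, 6.72 and 7.09 at 12 h against 7.19, 7.30 and 7.12. The groups overlapped at 6 h and not at 12 h. Its mean difference of -0.25 (SE 0.09; limma adjusted p = 0.527) was lower in 12 of 13 record pairs and passed with the record pair block (adjusted p = 0.0462), but not with the scan day block (0.116). The differences were -0.44 and -0.37 at 6 and 12 h and -0.09 at both later times. The interaction did not pass.

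Several other members had negative mean differences that did not pass. Bmp4 had a mean difference of -0.22 (adjusted p = 0.999) and was lower with RA in all record pairs of 24 h (4) and 48 h (3). Fst had -0.38 (adjusted p = 0.986; lower in 11 of 13 pairs) and Id1 -0.30 (0.899; 11 of 13), with 1 pair of Id1 at -1.45. Inhba had -0.25, Acvr2a -0.22 and Bmp2k, a kinase named for its BMP-2 induction, -0.16 (all adjusted p = 0.999). Acvr2a was lower in 12 of 13 pairs, and its second probe set had -0.16 (unadjusted p = 0.0406, limma adjusted p = 0.815). Bmp2 had -0.13 (unadjusted p = 0.0183, limma adjusted p = 0.574) and was also lower in 12 of 13 pairs, but it lay below the 25th percentile on all 27 arrays, and its other probe sets had 0.02 and -0.004. On the higher side Smad7 had 0.13 (adjusted p = 0.999; higher in 10 of 13 pairs) and Nodal 0.10 (0.999; 11 of 13). Bmp7 was also higher in 11 of 13 pairs. Of 7 Smads 1 had an unadjusted limma p below 0.05, and it was not Smad7 (0.157). Of the 56 mean differences 29 lay below 0. Among 6 type II and III receptors and 7 Smads, 0 passed in the mean of 4 times with record pair or scan day as a block.

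**Figure D5:**
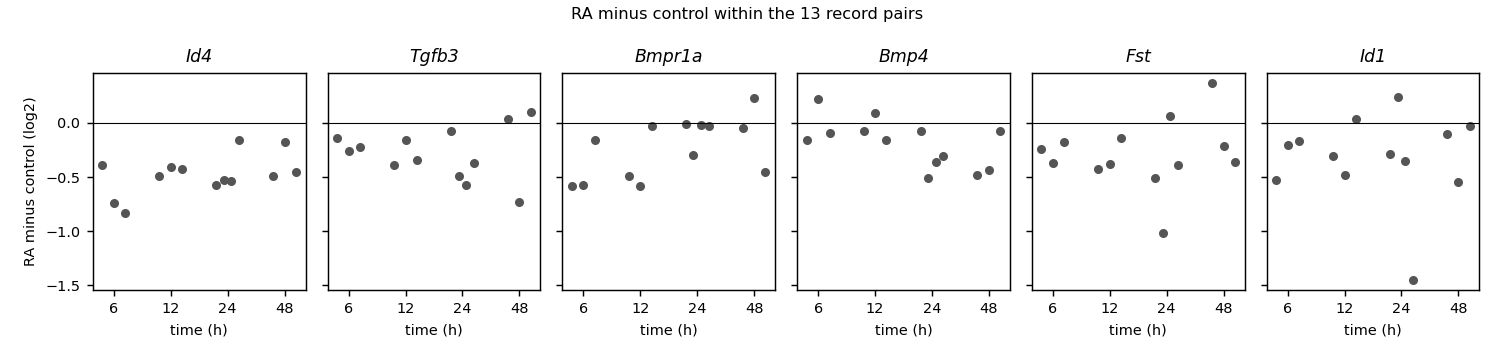
RA minus control (y axis, log2) within each of the 13 record pairs, by time in h (x axis), for Id4, Tgfb3, Bmpr1a, Bmp4, Fst and Id1, 1 point per pair. All 13 Id4 points lie below 0, between -0.83 and -0.16, and the lowest Id1 point is at -1.45.

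Other genes of the pathway were read from lists of extracellular modulators (17 of 33 on the array), intracellular modulators (20 of 31) and target genes (29 of 31). These lists were chosen with earlier results of these data known. Their counts beside the shares of all probe sets are therefore descriptions, and no excess was tested. With RA, as the mean of 4 times, 1 of 17 extracellular modulators was lower, 0 of 20 intracellular modulators passed, and among 29 targets 1 was higher and 2 lower, while 0.564% of all probe sets passed (53 higher and 17 lower). The lower genes were Bgn, the proteoglycan biglycan, which binds TGF-beta (-0.59, limma adjusted p = 0.0359), Col1a2, a type I collagen chain (-0.75, 0.00974), and Dlx5, a homeobox gene induced by BMPs (-0.41, 0.0216). The higher gene was Cdkn2b, a cell cycle inhibitor induced by TGF-beta (0.66, 0.0144). Col1a2 was lower in 13 of 13 record pairs, Bgn and Dlx5 in 12, and Cdkn2b was higher in 13. The list medians were -0.06, -0.04 and -0.05, with 0.01 over all probe sets, and 0 list members passed at any single time.

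From 6 to 48 h in controls, where 9.52% of all probe sets passed, 3 of 17 extracellular modulators rose, namely Bgn (1.26), the follistatin-like Fstl1 (0.67) and the protease Htra1 (0.54), with limma adjusted p from 0.00266 to 0.0384 and 0 lower. Of 20 intracellular modulators 2 rose, Skil (0.68), a Smad corepressor, and Zfyve16 (0.51), a Smad-binding endosomal protein. Of 29 targets 4 rose, Tgfbi (1.99), Ccn2 (0.81), Col3a1 (1.10) and Vegfa (0.60), and 3 fell, Msx1 by 1.29, Msx2 by 1.60 and Timp1 by 0.48 on the log2 scale. Msx1 and Msx2, homeobox genes induced by BMP, fell over the interval in which Bmp4 rose, and Msx1 is also among the crest markers above. The steps differed, as Msx2 fell already from 6 to 12 h (below). Bmp4 differed by -0.13 in that step and by 0.83 from 24 to 48 h, and neither passed. The list medians were 0.26, 0.05 and 0.01, with 0.07 over all probe sets.

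Between 6 and 12 h in controls 5.43% of all probe sets passed (329 higher and 345 lower). Of 29 targets 1 rose, Tgfbi (1.27, limma adjusted p = 0.0126), a matrix protein induced by TGF-beta. In the same step 6 fell: Col1a1 by 1.14, Cdkn1a by 1.15, Msx2 by 1.09, Timp1 by 0.64, Snai1 by 0.59 and Hes1 by 0.54 (adjusted p from 0.0101 to 0.0398). Of 20 intracellular modulators Tgfb1i1, a focal adhesion protein induced by TGF-beta, fell by 0.65 (adjusted p = 0.0167), and 0 of 17 extracellular modulators passed. In RA explants from 6 to 48 h 2 of 17, 4 of 20 and 5 of 29 rose and 3 targets fell, while 5.51% of all probe sets were higher and 6.23% lower (11.7% in all). They were Fstl1 (1.02) and Tll1 (1.51), then Map3k7 (0.51), Tgif2 (0.40), Skil (1.04) and Zfyve16 (0.68), and then Tgfbi (2.09), Ccn2 (1.07), Col3a1 (1.42), Vegfa (0.90) and Gata2 (0.64), with Msx1, Msx2 and Timp1 lower by -1.11, -1.93 and -1.0.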

How the data were processed

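Total RNA of 27 murine neural crest explant samples was measured on Affymetrix MG_U74Av2 arrays. The deposited values were linear intensity values made by the authors with RMA Express 0.2, and GeneSpring is also named, per the submitters' processing notes. What GeneSpring did to them, if anything, was not given in the sources used here. RMA gives no detection calls. The plan had taken the values as log2, so log2 was taken once.

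Of the probe sets, 66 controls were left out and 12422 tested. Of these 10833 named 1 gene, 396 several and 1193 none, by the platform annotation. The gene list was set by symbol. Its members and the lists of other pathway genes and markers were chosen with earlier results of these data known.

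One linear model over the 8 groups of treatment and time was fitted with limma 3.58.1 in R 4.3.3 (19 residual degrees of freedom, no block). Tests were two-sided, p-values were Benjamini-Hochberg adjusted over all probe sets tested, and 0.05 was the threshold. Named with values were members past the threshold in any comparison, the largest mean RA and the largest 48 against 6 h difference of each role, and list genes past the threshold. A few others were chosen after their values were seen. Equal replicate numbers were read as pairs at 6 and 24 h alone, where control and RA deviations of equal number correlated by 0.447 to 0.47 and 0.229 to 0.622. Record pairs had a median correlation of 0.451 (13 pairs) against -0.203 for the other 33 combinations. At 12 h the 3 record pairs, which had equal replicate numbers, correlated by only -0.052 to 0.257. Alternatives were blocks for replicate number, scan day and record pair, other scalings, a filter on dim probe sets, array weights, another grouping of the third 48 h control, and leaving out arrays. Steps were tested on simulated data with noise independent between arrays, so the test did not cover correlation within scan days or record pairs. Python 3.11.15 (numpy 2.4.6, pandas 2.3.3) built the tables, and matplotlib 3.10.9 drew the plots. Promoter sequences were matched by symbol for 40 of the 56 members.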

Additional observations from a re-analysis of the deposited data

Results flagged for a closer look

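In groups of 4 arrays, 1 array stood far from the rest in 3 of the 51 groups tested over 17 named members, and chance flags about 1 in 20 groups. For Inhba the first 48 h control read 7.57, with the nearest other at 9.02. For Bmp1 the third 48 h control, the array whose description names RA, read 7.85, with the nearest at 8.48. For Smad7 the first RA array of 24 h read 7.03, with the nearest at 7.34.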

How the results depend on the processing

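For single genes, 0 of the values tried reversed direction under any alternative. With the replicate number as a block, the members called with RA were 2 at 48 h (Bmp4 and Acvr2b, where the numbers do not pair the arrays) and 1 in the mean of 4 times (Id4, -0.44, limma adjusted p = 0.037). With a record pair block the counts were 1 at 6 h, 1 at 24 h and 3 in the mean. With a fixed scan day block they were 1 at 6 h, 2 in the mean and 2 from 12 to 24 h in controls, and with a random scan day block 2 from 12 to 24 h, 0 from 24 to 48 h and 2 in RA explants from 6 to 48 h. Array weights gave 1 at 6 h (1.14% of all probe sets passed), 1 in the mean (1.12%), 8 from 6 to 12 h (19.8%), 2 from 12 to 24 h (2.17%), 0 from 24 to 48 h (0.427%) and 14 for any change (25.3%). Median centring gave 1 in the mean and 2 in RA explants, and cyclic loess 1, 2 and 0 from 24 to 48 h. Leaving out the 30% dimmest probe sets or using an intensity trend gave 1 in the mean. Grouping the third 48 h control with RA gave 0 from 24 to 48 h. Without the 2 arrays of scan day 3, an alternative chosen after seeing the data, 5 members passed from 6 to 12 h. Where no share over all probe sets is given for a fit, here or for the left-out arrays below, a limit applies. A shift in the members cannot then be told from a shift of the whole array. The cause of these shifts was not tested.

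Leaving out 1 array in turn gave counts of 0 to 0 with RA at 6, 12 and 24 h and for the interaction, 0 to 1 at 48 h and in the mean, 2 to 4 from 6 to 12 h, 0 to 0 from 12 to 24 h, 0 to 1 from 24 to 48 h, 3 to 7 from 6 to 48 h, 7 to 9 for any change, and 1 to 7 in RA explants. Id4 passed in the mean of 4 times without the first (adjusted p = 0.02) or second 48 h control (0.0394) or the second RA array of 48 h (0.00194). Groups of 3 or 4 arrays and dim probe sets limit detection.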
